A study of Mus musculus with 2 samples.

Results

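Collagens are the main structural proteins of the lung's extracellular matrix. Each collagen molecule is a rope of α chains, and each chain is the product of its own gene. The account below covers every gene whose symbol is Col, a number, a and a number, which gave 44 collagen chain genes among the 27998 genes of the deposited tables. The choice used symbols only and no measured value, although earlier results of these data were known when it was made. Of the 44 chains, 26 reached 30 or more unique molecular identifiers (UMIs, the molecular tags that count transcripts) in the kept cells, 14 had between 1 and 25, and 4 had none.

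Lungs of mice that had received Labelling-4T1 cells intravenously were dissociated on day 7, and single cells were sequenced. 4T1 cells derive from a mammary tumour of the mouse and spread to the lung, and the labelling version is known to release a cell-penetrating mCherry protein that nearby cells take up. Both groups were sorted as CD45-, that is without the surface protein of leukocytes, and they are named Cherry_positive and Cherry_negative, with 1 library each. The labels used here give no mouse strain, age, sex, number of animals or pooling, and do not say whether these mice were irradiated, although the title of the series concerns radiation. With 1 library per group no difference could be tested against replicates, so every interval below covers counting error only, and the 2 libraries are compared rather than the conditions.

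Fibril-forming collagens (types I, III and V here) build the fibres that give tissue its tensile strength. Type IV collagen forms the sheet-like network of basement membranes, and the alveolar wall is known for a basement membrane shared by epithelium and capillary. Type VI collagen forms beaded filaments near cells, fibril-associated collagens decorate fibres, and membrane-spanning collagens sit in the cell surface.

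Several collagen chain genes lie beside one another. Col4a4 with Col4a3 and Col4a1 with Col4a2 are shown, and both chains of each pair were highest in the same Cherry_negative class. Col4a6 with Col4a5 (1308 bases apart) and Col3a1 with Col5a2 (24614 bases apart) are neighbours too but are not shown. Col3a1 and Col5a2 also shared their highest Cherry_negative class, adventitial fibroblasts. Positions are those of GENCODE M21 on GRCm38 and sequences are from the RefSeq promoter table on GRCm38.p6, which held 35 of the 44 chains. Col4a4 (chr1:82448423-82586849, minus strand) and Col4a3 (chr1:82586921-82722059, plus strand) point away from each other with 71 bases between their starts, and Col4a1 (chr8:11198423-11312826, minus strand) and Col4a2 (chr8:11312805-11449287, plus strand) overlap by 22 bases at their starts. Both stretches are printed 5′ to 3′ on the plus strand, and capitals mark the GC box GGGCGG, the CCAAT box CCAAT or the TATA-type motif TATAAA, searched on both strands.
Col4a4-Col4a3 gap (chr1:82586850-82586920): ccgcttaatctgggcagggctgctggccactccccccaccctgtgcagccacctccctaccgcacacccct
Col4a1-Col4a2 overlap (chr8:11312805-11312826): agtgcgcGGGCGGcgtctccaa
The gap between Col4a4 and Col4a3 held none of the 3 motifs, and the overlap of Col4a1 and Col4a2 held GGGCGG.

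The 250 bases before the start are shown for 3 chains with different cell patterns below: Col3a1, the most counted chain, Col13a1, found mainly in alveolar fibroblasts, and Col8a1, whose level was highest in pericytes. Each is printed 5′ to 3′ on the gene's own strand with the same capitals.
Col3a1 (chr1:45311288-45311537, plus strand): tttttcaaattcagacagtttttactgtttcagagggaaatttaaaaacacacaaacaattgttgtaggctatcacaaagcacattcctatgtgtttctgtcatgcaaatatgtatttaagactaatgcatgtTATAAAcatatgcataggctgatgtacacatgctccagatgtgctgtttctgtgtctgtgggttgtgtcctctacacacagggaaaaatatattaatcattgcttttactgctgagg
Col13a1 (chr10:61979109-61979358, minus strand): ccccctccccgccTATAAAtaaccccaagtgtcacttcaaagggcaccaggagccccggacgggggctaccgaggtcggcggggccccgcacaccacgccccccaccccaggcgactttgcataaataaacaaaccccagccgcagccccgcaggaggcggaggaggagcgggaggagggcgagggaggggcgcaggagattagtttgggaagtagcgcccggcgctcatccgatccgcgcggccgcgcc
Col8a1 (chr16:57754738-57754987, minus strand): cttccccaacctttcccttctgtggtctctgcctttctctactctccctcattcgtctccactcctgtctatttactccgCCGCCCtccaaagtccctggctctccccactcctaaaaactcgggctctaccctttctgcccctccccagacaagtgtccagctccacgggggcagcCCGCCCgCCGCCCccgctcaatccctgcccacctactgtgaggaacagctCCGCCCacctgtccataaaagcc
TATAAA stood in the windows of Col3a1 and Col13a1 and the GC box, on the opposite strand, in that of Col8a1. In the 250 bases before the start, TATAAA was found in 5 of the 35 collagen promoters and in 12.4% of all 32851 promoters of the table. CCAAT was found in 12 of 35 and in 33.8% of all, and GGGCGG in 21 of 35 and in 32.7% of all. A match is a description of the letters, not of a bound factor.

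The Cherry_positive library kept 1766 cells with 9850110 UMIs and the Cherry_negative library 2804 cells with 11473327 UMIs. Cells were grouped into classes from marker genes without using any collagen gene, so the classes were not chosen by the chains described. Each class name stands for cells like that type (alveolar fibroblast-like and so on), rebuilt from the data. The libraries held different cells: 1304 Cherry_positive and 767 Cherry_negative cells were mesenchymal, 247 and 1443 were endothelial, and 40 and 525 were epithelial. Leukocyte markers were near 0 in the 6 classes compared, with a summed level of 5.97 to 35.7 CPM over 8 markers (CPM is UMIs per 1000000 UMIs of the class), and 33 and 29 cells formed an immune class of their own. Some 13 barcodes occurred in both libraries, and the results without them are given with the alternatives.

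Collagen chains made up 6080 CPM of the Cherry_positive library and 2338 CPM of the Cherry_negative library. Mesenchymal cells held 95.5% and 74.7% of these collagen UMIs. Col3a1 alone gave 31.4% of all collagen UMIs, Col1a1 15.98% and Col1a2 15.8%, so the fibril chains of types III and I made up most of what was counted. UMIs of 3′ libraries count a transcript once whatever its length, so levels are not divided by length. Chains are set against each other only as UMIs of one per UMI of another, and the value is compared between classes.

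**Figure D1:**
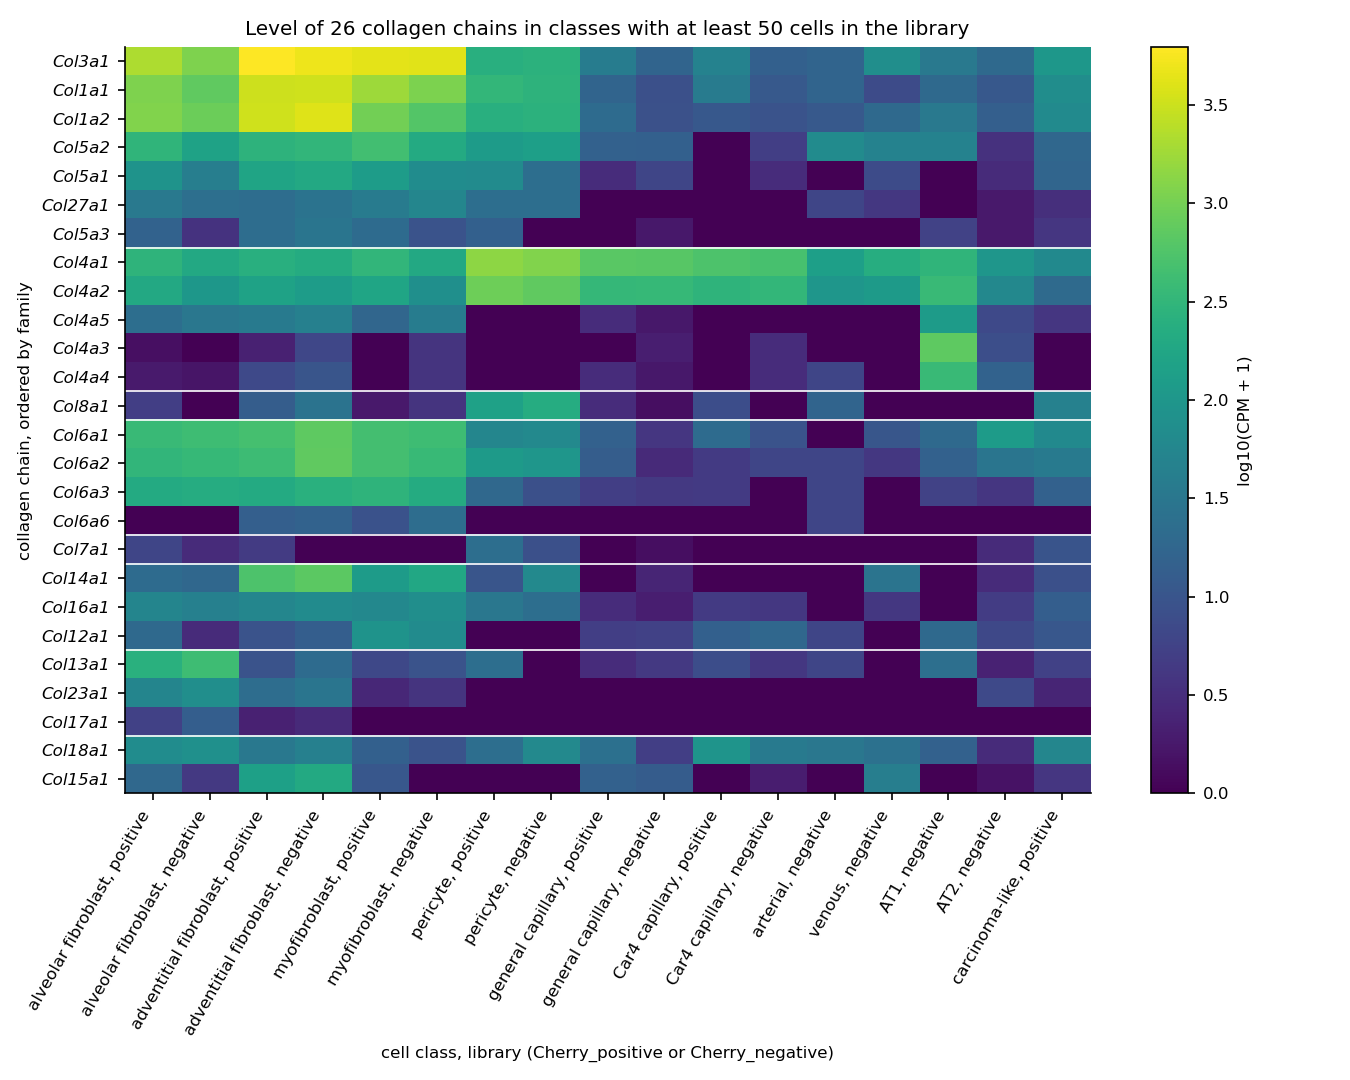
Level of the 26 chains with at least 30 UMIs (rows, by family) in every class for which the library held 50 cells or more (columns), as log10(CPM + 1). Fibril-forming and type VI chains were bright in the 3 fibroblast classes, Col4a1 and Col4a2 in pericytes and capillaries, and Col4a3 and Col4a4 in AT1 cells.

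Summed collagen differed widely between classes and kept the same order of the mesenchymal classes in both libraries. Adventitial fibroblasts, which lie around vessels and airways, had the highest sum, 15565 CPM in Cherry_positive and 16070 CPM in Cherry_negative. Myofibroblasts followed with 9654 and 7966 CPM, alveolar fibroblasts with 6805 and 4974 CPM, and pericytes, the contractile cells wrapped around capillaries, with 3817 and 3504 CPM. General capillary cells had 1167 and 1080 CPM and Car4 capillary cells 1080 and 937 CPM. The kind of collagen differed too. Fibril-forming chains were 84.8% and 79.9% of the collagen UMIs in adventitial fibroblasts but 27.5% and 28.7% in pericytes, where type IV chains made up 60.7% and 55.5%. In general capillary cells type IV chains made up 85.7% and 91.9%.

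**Figure D2:**
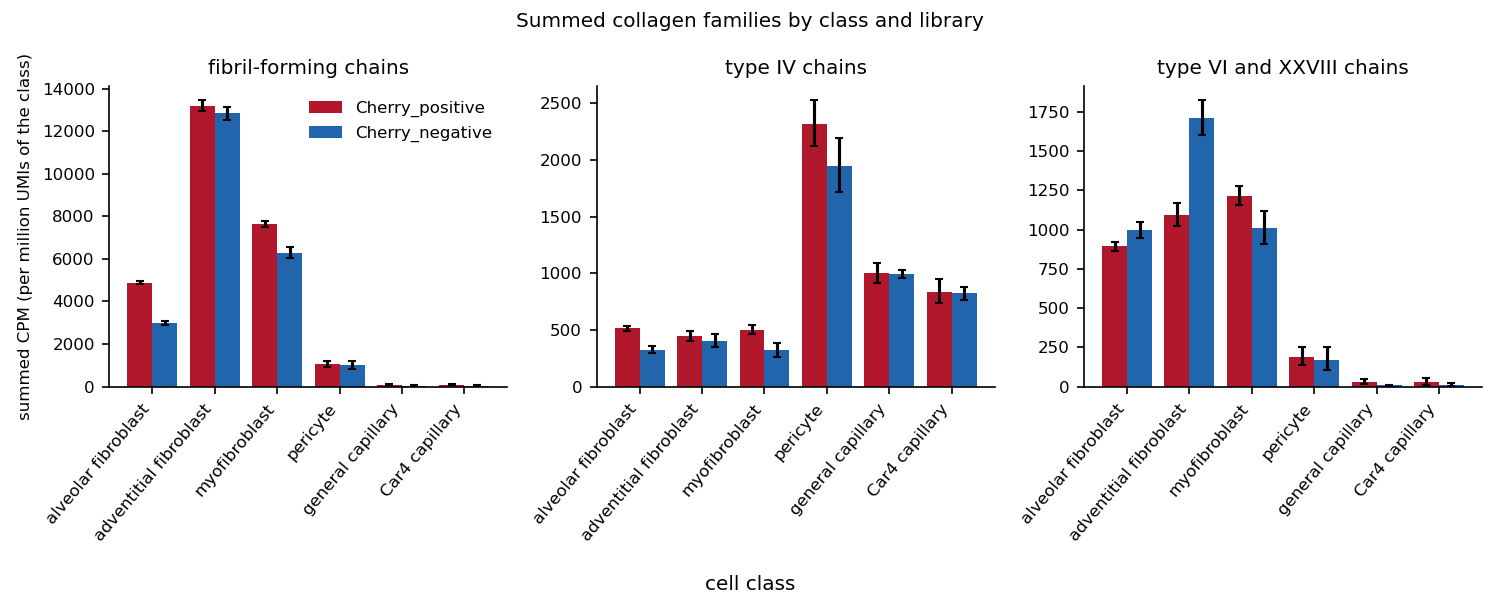
Summed CPM of the fibril-forming, type IV and type VI chains (type XXVIII included) in the 6 compared classes, with 95% Poisson intervals; the vertical scales differ. Fibril-forming chains peaked in adventitial fibroblasts, type IV chains in pericytes at 2319 and 1945 CPM.

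Of the 11 fibril-forming chains, 7 were measured, and all 7 were mesenchymal in pattern. Col3a1 (chr1:45311538-45349706), the only chain of type III collagen, was at 6236 CPM in Cherry_positive and 4944 CPM in Cherry_negative adventitial fibroblasts, 4327 and 4236 CPM in myofibroblasts, 2119 and 1166 CPM in alveolar fibroblasts, and 245 and 272 CPM in pericytes. Col1a1 (chr11:94936224-94953042), the α1 chain of type I collagen, was at 3182 and 3295 CPM in adventitial fibroblasts, 1722 and 1103 CPM in myofibroblasts and 1135 and 736 CPM in alveolar fibroblasts. Col1a2, its partner chain in type I collagen, was at 3289 and 4027 CPM, 956 and 593 CPM, and 1192 and 880 CPM in the same classes. So both libraries put Col3a1, Col1a1 and Col1a2 highest in adventitial fibroblasts, with intervals that did not overlap those of the next class. Type V chains, which are built into type I fibrils, were lower: Col5a2 ranged over the 3 fibroblast classes from 151 to 446 CPM, Col5a1 from 41.3 to 193 CPM and Col5a3 from 2.62 to 29.1 CPM. Col27a1 was at 21.6 to 55.1 CPM in the same classes.

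The balance of the 2 type I chains depended on the class. Alveolar fibroblasts had 0.95 (0.92 to 0.99) Col1a1 UMIs per Col1a2 UMI in Cherry_positive and 0.84 (0.77 to 0.91) in Cherry_negative, and adventitial fibroblasts had 0.97 and 0.82. Myofibroblasts had 1.80 (1.68 to 1.94) and 1.86 (1.57 to 2.21), so that their Col1a1 was high against Col1a2 in both libraries and their intervals lay apart from those of both other fibroblast classes. Myofibroblasts also had most Col3a1 per Col1a1 of the 3 classes, 2.51 in Cherry_positive and 3.84 in Cherry_negative, against 1.87 and 1.59 in alveolar and 1.96 and 1.501 in adventitial fibroblasts. Col5a2 per Col5a1 was 3.498 and 3.65 in alveolar fibroblasts and 1.76 and 1.65 in adventitial fibroblasts.

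The type IV chains fell into different cell classes. Col4a1 and Col4a2, which together form the common basement membrane network, were highest in pericytes, at 1418 and 1196 CPM for Col4a1 and 901 and 749 CPM for Col4a2. Col4a1 was at 661 and 643 CPM in general capillary cells and 538 and 496 CPM in Car4 capillary cells, the wide thin cells of the alveolar capillary bed, and at 192 to 311 CPM in the fibroblast classes. The pericyte level stood above the capillary level in both libraries, with intervals that did not overlap. Pan-endothelial markers were at 2618 CPM in Cherry_negative pericytes against 375 CPM in Cherry_positive ones. Endothelial RNA at the level of Cldn5, Egfl7 and Cdh5 in Cherry_negative pericytes would bring 78.9 of their 1196 CPM of Col4a1.

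Col4a3, Col4a4 and Col4a5 form a second type IV network that is known from thin filtering and gas-exchange walls. In the 57 Cherry_negative AT1 cells, the flat cells that line the alveolus, Col4a3 was at 708 CPM (600 to 831), Col4a4 at 366 CPM and Col4a5 at 122 CPM. The 5 Cherry_positive AT1 cells gave 518 CPM from 16 UMIs for Col4a3 and 162 CPM from 5 UMIs for Col4a4. The next class for Col4a3 with at least 50 cells was AT2, the surfactant-secreting cells, at 7.27 CPM (4.79 to 10.6) in Cherry_negative, and Col4a4 was there at 14.8 CPM. AT1 cells had 1.94 (1.46 to 2.58) Col4a3 UMIs per Col4a4 UMI and AT2 cells 0.49 (0.30 to 0.79). The gap sequence printed above lies between these genes. Col4a5 was also found in fibroblasts, at 16.8 to 43.7 CPM.

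Col4a1 and Col4a2 kept a similar balance over most classes. Col4a1 UMIs per Col4a2 UMI were 1.53 and 1.92 in alveolar fibroblasts, 1.57 and 1.60 in pericytes, and 1.98 and 1.85 in general capillary cells. AT1 cells were lower, at 0.82 (0.58 to 1.16), an interval below those of these 3 classes. Carcinoma-like Cherry_positive cells stood at 3.11 (1.996 to 4.99), above the Cherry_positive intervals of alveolar fibroblasts (1.40 to 1.67) and pericytes (1.32 to 1.89) and overlapping that of general capillary cells (1.64 to 2.39).

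**Figure D3:**
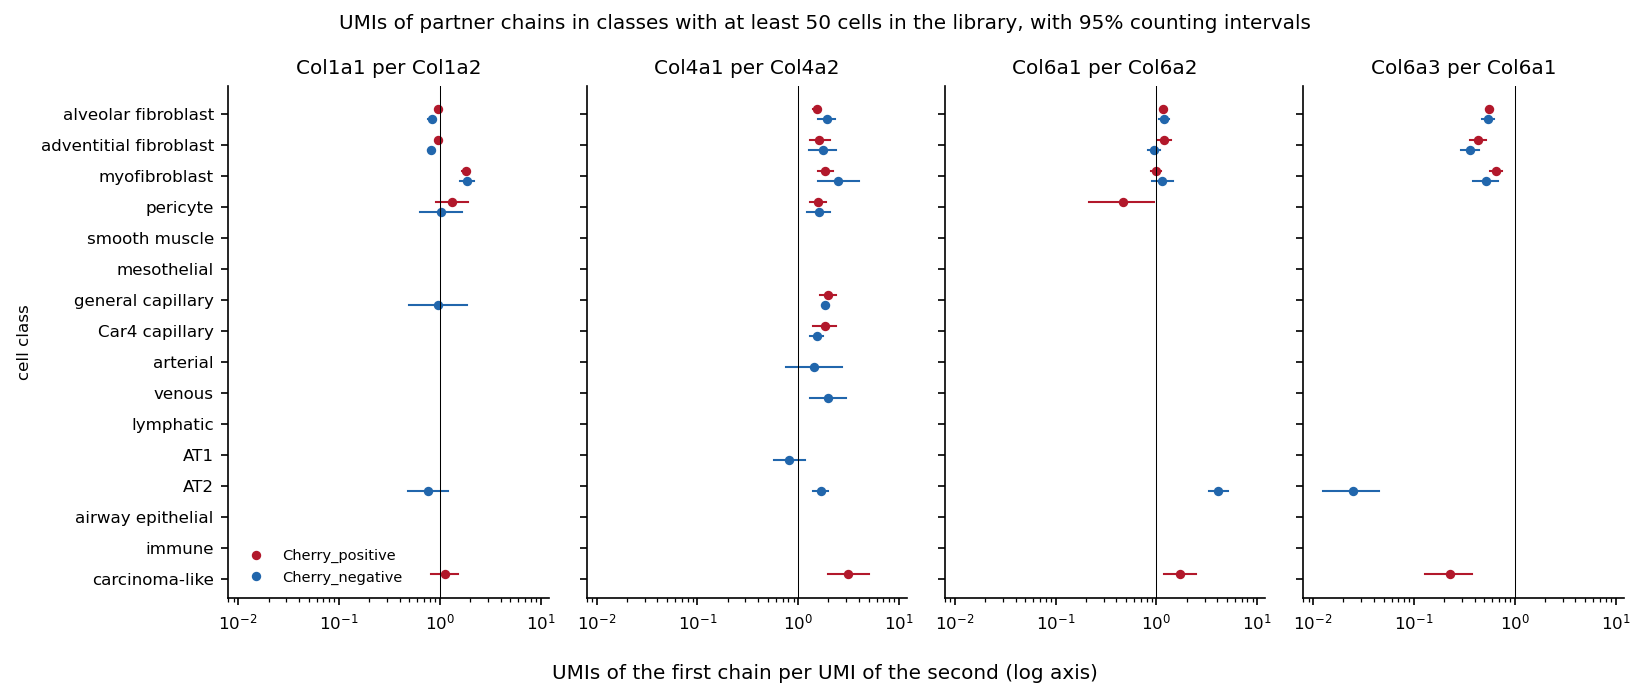
UMIs of a chain per UMI of its partner (log axis) in classes with at least 50 cells in the library and 30 UMIs of the pair, with 95% counting intervals. Col1a1 per Col1a2 was high in myofibroblasts, and in AT2 cells Col6a1 per Col6a2 was 4.10 and Col6a3 per Col6a1 0.0251.

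Type VI collagen is made of chains from Col6a1, Col6a2 and Col6a3. In the fibroblast classes these ran together: Col6a1 was at 369 to 703 CPM, Col6a2 at 316 to 741 CPM and Col6a3 at 207 to 295 CPM over both libraries. Col6a1 per Col6a2 lay between 0.95 and 1.20 there. AT2 cells differed, since Cherry_negative AT2 cells held Col6a1 at 118 CPM from 439 UMIs, Col6a2 at 28.8 CPM and Col6a3 at 2.96 CPM. Their Col6a1 per Col6a2 was 4.10 (3.31 to 5.12), and Col6a3 per Col6a1 was 0.0251 (0.0124 to 0.0453) against 0.36 to 0.65 in the fibroblast classes. The mesenchymal genes Inmt, Dcn and Mfap4 stood in these AT2 cells at 0.725% of their mesenchymal level, which would bring 3.26 CPM of Col6a1. In the 22 Cherry_positive AT2 cells Col6a1 was at 88.8 CPM, Col6a2 at 11.1 CPM and Col6a3 at 16.6 CPM, the last from 3 UMIs. With each cell thinned to 2000 UMIs, 21.1% (17.4 to 25.2) of Cherry_negative AT2 cells had a Col6a1 UMI against 0.485% of Cherry_negative general capillary cells, which serve as background; unthinned shares were 55.8% and 0.81% at median depths of 8154 and 2262 UMIs.

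Of the fibril-associated collagens, Col14a1 was highest in adventitial fibroblasts in both libraries, with intervals apart from the next class. It was at 538 and 686 CPM in adventitial fibroblasts, 122 and 187 CPM in myofibroblasts, and 20.5 and 17.7 CPM in alveolar fibroblasts. Col12a1, which binds fibrils under tension, was highest in myofibroblasts, at 88.1 and 66.2 CPM, although in Cherry_negative its interval overlapped that of AT1 cells. Col16a1 was spread evenly, at 43.9 to 74.4 CPM over the 3 classes.

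Of the membrane-spanning chains, Col13a1 and Col23a1 were highest in alveolar fibroblasts in both libraries, with intervals apart from the next class. The intervals of Col17a1 overlapped those of the next class. Col13a1 was at 259 and 411 CPM there and at most 23.5 CPM in any other class with at least 50 cells in the library. Col23a1 was at 51.7 and 73.4 CPM there and 21.6 and 29.1 CPM in adventitial fibroblasts. Col17a1, a hemidesmosome component of epithelia, was at only 4.36 and 12.4 CPM in alveolar fibroblasts, from 20 and 19 UMIs. After thinning to 2000 UMIs, a Col13a1 UMI was found in 40% (36.7 to 43.4) of 850 Cherry_positive and 53.0% (47.9 to 58.0) of 389 Cherry_negative alveolar fibroblasts, and in 0.485% of Cherry_negative general capillary cells. Unthinned shares in the fibroblasts were 61.4% and 67.8%, and 17 and 62 shallower fibroblasts were left out of the thinned ones.

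Col15a1 and Col18a1 carry the endostatin domain and sit at basement membranes. Col15a1 was at 144 and 204 CPM in adventitial fibroblasts, and its next class with at least 50 cells was at 18.1 CPM in Cherry_positive and 40.7 CPM in Cherry_negative. Col18a1 was spread over classes, with 68.7 and 80.6 CPM in alveolar fibroblasts and 91.4 and 34.0 CPM in Car4 capillary cells. Col8a1, a short-chain collagen of vessel walls, had its highest level in pericytes, at 147 and 219 CPM from 33 and 29 UMIs. Carcinoma-like cells held more of its UMIs over both libraries, 63 and 23 of the 205 counted, but fewer than pericytes in Cherry_negative. Col7a1, the anchoring fibril chain, reached 22.3 CPM at most in classes of that size.

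Carcinoma-like cells were not compared between the libraries, since Cherry_negative held only 10, with AT2 markers at 17657 CPM. The class showed 6 of 12 carcinoma markers and none among their 10 leading genes. In the 130 Cherry_positive cells, Col18a1 was at 53.6 CPM, Col8a1 at 46.2 CPM and Col4a1 at 61.7 CPM. Mesenchymal RNA at the level of its 3 genes would bring 1.89, 0.33 and 11.8 CPM of these chains. Col1a1 stood at 71.2 CPM and Col3a1 at 101 CPM, and such RNA would bring 52.1 and 105 CPM. In general capillary cells the same estimate exceeded the measured levels of Col3a1 and Col1a2, as given below. It therefore does not separate Col1a1 from Col3a1 here.

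The second question was whether collagen chains differed between the 2 libraries within a class. In alveolar fibroblasts the fibril-forming chains together were 1.63 times as high in Cherry_positive as in Cherry_negative (4891 against 2999 CPM, interval of the ratio 1.58 to 1.68). The type IV chains were 1.57 times as high (514 against 327 CPM, 1.43 to 1.74), while type VI chains were at 893 and 995 CPM (ratio 0.90, 0.85 to 0.95). Trimmed-mean scaling (TMM), which centres the bulk of genes, put that centre at -0.12 log2 here. For myofibroblasts it was -0.20 and for pericytes -0.22, so ratios of these classes are higher on that scale, and Col6a3 of alveolar fibroblasts passed from 0.92 to 1.01. Of the 21 chains with at least 30 UMIs in the class, 5 were at least 2-fold higher in Cherry_positive, against 6.08% of all 9584 genes measured, and 1 was at least 2-fold lower, against 6.46%. The median log2 ratio of these 21 chains was 0.44, and that of all genes was -0.06. A ratio here is the CPM in Cherry_positive divided by the CPM in Cherry_negative.

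The higher chains were Col12a1, Col5a3, Col15a1, Col5a1 and Col5a2. Col5a2 stood at 307 against 151 CPM (ratio 2.04, 1.77 to 2.35) and Col5a1 at 87.7 against 41.3 CPM (2.13, 1.63 to 2.82), so that both main type V chains were about as far apart. Col12a1 stood at 18.5 CPM from 85 UMIs against 1.97 CPM from 3 UMIs (9.44, 3.12 to 46.7). Col15a1 had 83 against 5 UMIs (5.53, 2.28 to 17.5) and Col5a3 had 67 against 4 (5.58, 2.08 to 21.1). These last 3 chains rest on few Cherry_negative UMIs, and their intervals are wide. Col3a1 had a ratio of 1.82 (1.73 to 1.91), Col4a2 of 1.93 (1.63 to 2.31), Col4a1 of 1.54, Col1a1 of 1.54 (1.45 to 1.65) and Col1a2 of 1.35 (1.27 to 1.44). These 5 chains were thus higher in Cherry_positive but did not reach 2-fold, except that Col4a2 was at 2.11 with TMM. The type IV chain Col4a5 stood at 22.7 against 31.4 CPM, with an interval that held 1 (0.72, 0.51 to 1.04). The membrane-spanning chains measured went the other way: Col13a1 had a ratio of 0.63 (0.57 to 0.69), Col23a1 of 0.70 (0.56 to 0.89) and Col17a1, the lower chain, of 0.35 (0.18 to 0.70).

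**Figure D4:**
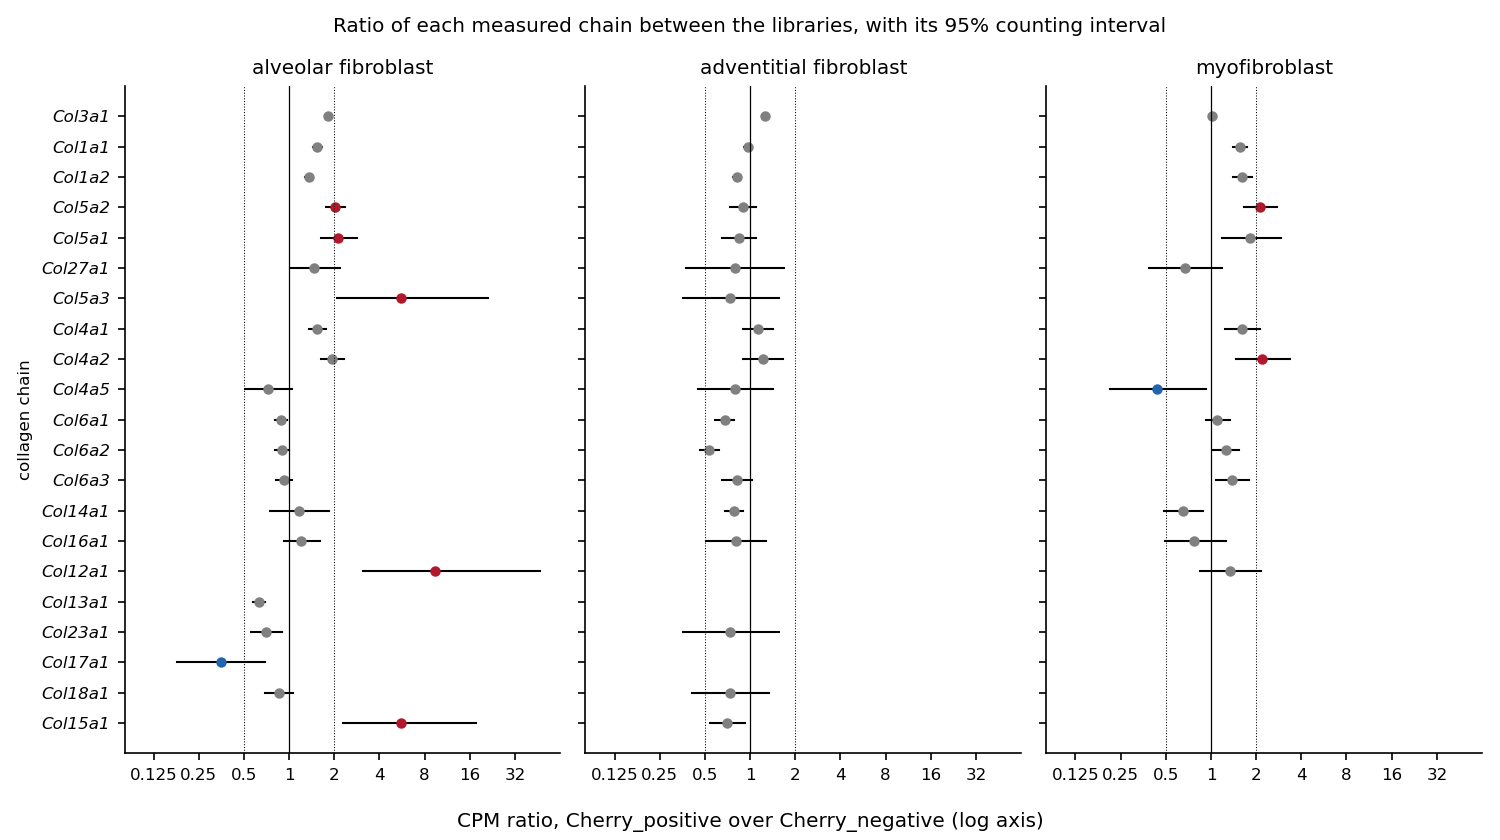
Ratio of the CPM in Cherry_positive to that in Cherry_negative for each chain with at least 30 UMIs in the class (log axis), with its 95% counting interval; dotted lines mark 0.5 and 2. Red points are at least 2-fold higher and blue ones at least 2-fold lower. Type V chains lay to the right in alveolar fibroblasts. In adventitial fibroblasts 3 of the 18 chains had ratios above 1, against 48.5% of all 5144 genes. With TMM Col1a1 passed above 1 there as well, at 1.03.

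The 2 libraries filled different clusters of alveolar fibroblasts, which touches each of these ratios. Of 867 Cherry_positive cells, 156 lay in cluster 1 (led by Slc7a10 and Tcf21), 205 in cluster 6 (Tnfsf13b and C4b), 279 in cluster 7 (Cxcl10, Saa3 and Ccl2) and 227 in cluster 8 (Tfpi2, Tnc and Hmox1), while of 451 Cherry_negative cells 330 lay in cluster 1 and only 7 and 25 in clusters 7 and 8. Clusters 1, 6, 7 and 8 held Col1a1 at 614, 1174, 1122 and 1319 CPM over both libraries and Col13a1 at 491, 233, 206 and 236 CPM. So cluster 1, which held most of the Cherry_negative cells, had less Col1a1 and more Col13a1 than the other 3. The class name was less firm outside cluster 1. In clusters 1, 6, 7 and 8 the alveolar fibroblast markers averaged 0.89, 0.48, 0.23 and 0.31 of their highest cluster level. The next set, of neural or Schwann cells, averaged 0.24 in cluster 8. Clusters 7 and 8 had 8 and 9 alveolar fibroblast markers detected, but no mesenchymal marker among their leading genes. Within cluster 1 the ratio of Col1a1 was 1.03 (0.91 to 1.17) and that of Col13a1 was 1.02 (0.88 to 1.17), and within cluster 6 they were 1.08 (0.97 to 1.21) and 1.08 (0.84 to 1.39). For these 2 chains the libraries did not differ beyond counting error within a shared cluster. Col3a1 still differed, with ratios of 1.37 (1.24 to 1.502) in cluster 1 and 1.63 (1.504 to 1.77) in cluster 6. The fibril-forming sum had ratios of 1.24 (1.17 to 1.32) and 1.32 (1.25 to 1.39) in clusters 1 and 6. Col4a1 did not differ there, with ratios of 1.08 (0.85 to 1.38) and 1.01 (0.80 to 1.29).

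Clusters 1 and 6 pooled, a comparison chosen after seeing the data, had 2 chains at least 2-fold higher, Col12a1 and Col3a1, against 2.79% of 7956 genes, and none at least 2-fold lower, against 3.02%. Col5a1 then had a ratio of 1.63, Col5a2 of 1.67 and Col15a1 of 1.97. The pooled ratio of Col3a1, 2.01, exceeded that in either cluster, since Cherry_positive cells lay more often in cluster 6. Col15a1 stood at 0.60, 6.16, 18.98 and 36.4 CPM in clusters 1, 6, 7 and 8 over both libraries. AT2 markers, summed over 10 genes, stood at 216 CPM in Cherry_positive and 2204 CPM in Cherry_negative alveolar fibroblasts. Pan-endothelial markers stood at 117 and 305 CPM, and pan-mesenchymal markers, summed over 8 genes, at 10026.5 and 19546.3 CPM. The part of these markers in the ratios was not tested.

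**Figure D5:**
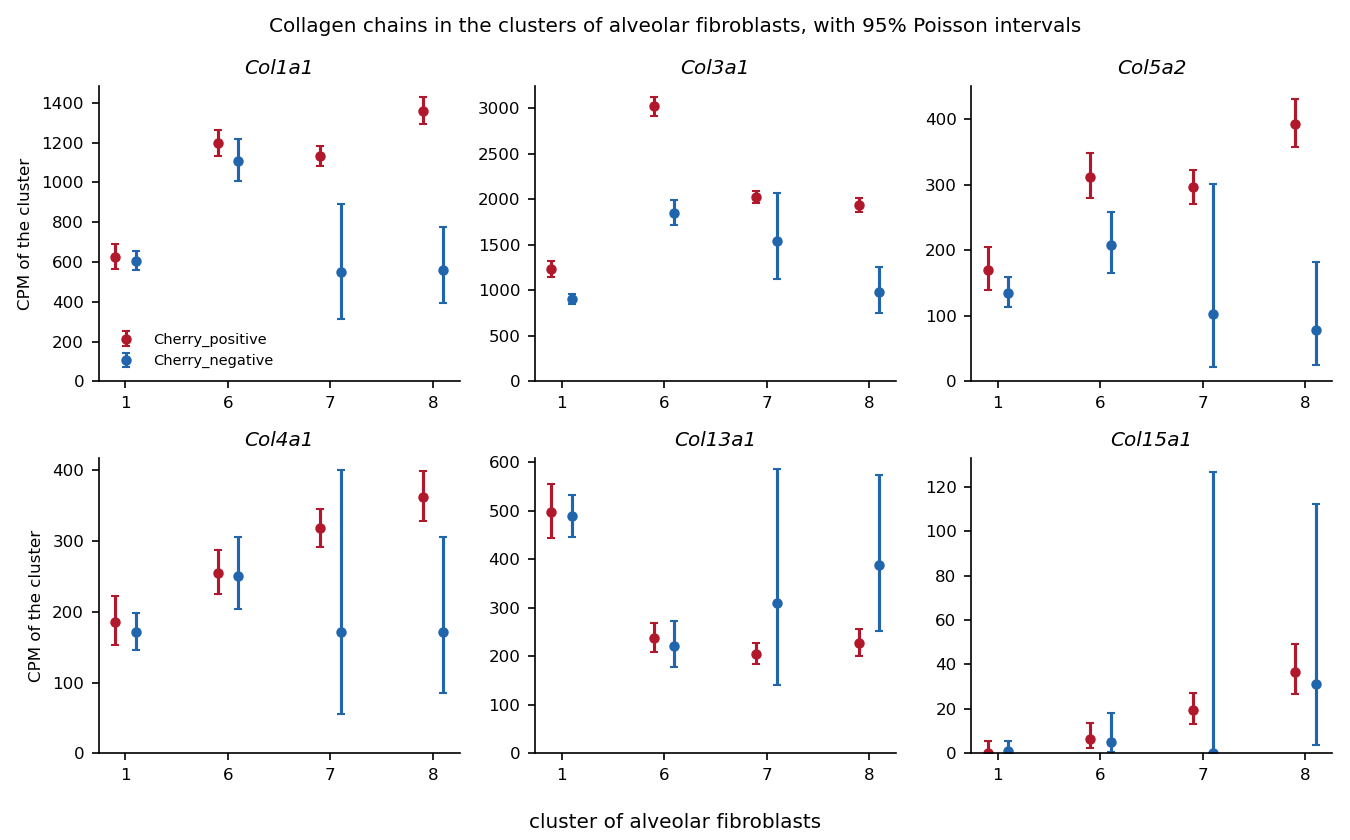
CPM of 6 chains in the 4 clusters of alveolar fibroblasts by library, with 95% Poisson intervals; clusters 7 and 8 hold 7 and 25 Cherry_negative cells. Col1a1 and Col13a1 overlapped between libraries in clusters 1 and 6, and Col3a1 did not.

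Collagen counts were uneven among the cells of the class. The 87 Cherry_positive alveolar fibroblasts with most Col1a1 UMIs, of 867, held 43.9% of its UMIs, and the 45 top Cherry_negative cells, of 451, held 36.3%. After thinning to 2000 UMIs, a Col3a1 UMI was found in 89.5% (87.3 to 91.5) and 77.6% (73.2 to 81.7) of cells and a Col1a1 UMI in 73.6% (70.5 to 76.6) and 67.9% (63.0 to 72.5), whereas in Cherry_negative AT2 cells these shares were 2.02% and 0.90%. Unthinned shares in alveolar fibroblasts were 95.7% and 85.1% for Col3a1 and 88.7% and 76.5% for Col1a1, at median depths of 4513 and 3113 UMIs.

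Myofibroblasts, a single cluster, also had more type I, IV and V collagen in Cherry_positive. Col1a1 had a ratio of 1.56 (1.40 to 1.74), Col1a2 of 1.61 (1.39 to 1.87) and Col4a1 of 1.61 (1.25 to 2.11). Col3a1 was at 4327 and 4236 CPM with a ratio of 1.02 (0.96 to 1.08), or 1.17 with TMM. Col6a3 (1.39, 1.08 to 1.80) was higher too, and Col14a1 (0.65, 0.49 to 0.88) was lower. The 24 of 243 Cherry_positive cells with most UMIs of the chain held 49.7% of Col1a1 and 50.4% of Col1a2 UMIs. The top 13 of 134 Cherry_negative cells held 26.25% and 32.6%, so these chains were less concentrated there. For Col4a1 the shares were 50.3% and 47.1%, and for Col5a2 38.7% and 48.7%. Of 15 chains measured, 2 were at least 2-fold higher, Col4a2 (168 against 77.2 CPM, 2.18) and Col5a2 (446 against 209 CPM, 2.13), against 6.44% of 5500 genes, and 1 was at least 2-fold lower, Col4a5 (16.8 against 38.6 CPM, 0.44, from 14 Cherry_negative UMIs), against 5.71%. With TMM Col5a1 passed 2-fold as well, at 2.099, and Col4a5 was at 0.501. Pan-endothelial markers were at 76.1 and 758 CPM in these cells, and their part was not tested.

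Adventitial fibroblasts showed no chain 2-fold apart. None of 18 was at least 2-fold higher, against 3.21% of 5144 genes, and none at least 2-fold lower, against 3.05%. Among type VI chains, the interval of Col6a3 held 1 (ratio 0.82, 0.65 to 1.03), and the other chains measured were lower in Cherry_positive. Col6a2 was at 397 against 741 CPM (ratio 0.54, 0.46 to 0.62) and Col6a1 at 475 against 703 CPM (0.68, 0.59 to 0.78). Col14a1 (0.78, 0.68 to 0.90), Col15a1 (0.70, 0.54 to 0.92) and Col1a2 (0.82, 0.77 to 0.86) were lower too, Col1a1 had a ratio of 0.97 (0.91 to 1.03; 1.03 with TMM), and Col3a1 was higher (1.26, 1.20 to 1.32). Col1a2, Col15a1 and Col6a2 thus stood on opposite sides of 1 in different classes: Col1a2 and Col15a1 were higher in alveolar and lower in adventitial fibroblasts, and Col6a2 was lower in both of these and higher in myofibroblasts (1.26, 1.04 to 1.53). The differences between classes were not tested, and in alveolar fibroblast clusters 1 and 6 alone Col6a2 was at 0.999.

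Pericytes showed no chain 2-fold apart. Of 8 chains measured none was at least 2-fold higher, against 7.06% of 2097 genes, and none at least 2-fold lower, against 5.05%. Col4a1 had a ratio of 1.19 (0.98 to 1.44) and Col8a1 of 0.67 (0.39 to 1.14), both with intervals that held 1. With TMM Col4a1 was at 1.38, and the summed type IV chains had a ratio of 1.19 (1.02 to 1.39), which left out 1. In general capillary cells Col4a1 (1.03, 0.91 to 1.16) and Col4a2 (0.96, 0.81 to 1.14, and 1.01 with TMM) did not differ beyond counting error. These ratios pool clusters that the libraries filled differently. Clusters 0, 5 and 12 held 52, 42 and 35 Cherry_positive and 611, 314 and 68 Cherry_negative cells of this class. Of 6 chains there, 2 were at least 2-fold higher, against 2.43% of 7942 genes, and none lower, against 6.21%. The 2 were Col3a1, at 37.8 and 15.8 CPM, and Col1a2, at 19.9 and 7.73 CPM. Mesenchymal RNA at the level of Inmt, Dcn and Mfap4 in these cells would bring 156 and 19.5 CPM of Col3a1 and 72.2 and 12.3 CPM of Col1a2, more than was measured in either library. The estimate is thus too high for these cells, and the part of such RNA in the 2 ratios was not tested. In Car4 capillary cells 1 of 3 chains was at least 2-fold higher, against 1.34% of 5231 genes, and none lower, against 3.5%. It was Col18a1, at 91.4 CPM from 27 UMIs against 34.0 CPM from 33 UMIs (2.69, 1.56 to 4.61), and without the 1 Cherry_positive cell with most of its UMIs the ratio was 1.99.

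Genes that make, process, bind or accompany collagen were read from 5 lists. In alveolar fibroblasts the folding and modification list had 19 of 20 genes measured, with 2 at least 2-fold higher against 6.08% of all genes and 1 lower against 6.46% (0 and 0 in clusters 1 and 6 alone), and a median log2 ratio of 0.50 against -0.06 for all genes. Serpinh1, the collagen-specific chaperone, was at 1452 and 903 CPM (1.61, 1.52 to 1.70) and P4hb, a subunit of prolyl 4-hydroxylase, at 235 and 163 CPM (1.44, 1.25 to 1.66). The 2 higher genes were Plod3, a lysyl hydroxylase, at 72.7 and 32.1 CPM, and P4ha3, a prolyl hydroxylase, with 66 UMIs against 1. The lower one was the galactosyltransferase Colgalt2, with 18 and 15 UMIs.

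Processing and cross-linking enzymes had 9 of 14 genes measured in alveolar fibroblasts, with 1 at least 2-fold higher, 1 lower and a median log2 ratio of 0.23, beside the same shares of all genes. Loxl2, a collagen cross-linking oxidase, was at 43.0 and 17.03 CPM (2.52, 1.67 to 3.96), Lox at 190 and 162 CPM (1.18), and Pcolce2, an enhancer of procollagen cleavage, at 521 and 1933 CPM (0.27, 0.26 to 0.28). Pcolce2 was low in Cherry_positive myofibroblasts as well, at 199 and 637 CPM (0.31). The values for alveolar fibroblasts cover the whole class, whose clusters the 2 libraries filled differently.

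The small proteoglycans that coat fibrils had 9 of 10 genes measured in alveolar fibroblasts, with none at least 2-fold higher, 5 lower against 6.46% of all genes, and a median log2 ratio of -1.03. They were Ogn (283 and 880 CPM, 0.32), Prelp (361 and 736 CPM, 0.49), Aspn (0.32), Fmod (0.43) and Omd (0.18). Dcn had a ratio of 1.29 and Lum of 1.15, so this group did not move as one. In clusters 1 and 6 alone 1 member of the list was at least 2-fold lower, against 3.02% of all genes. In myofibroblasts Dcn was at 3411 and 1568 CPM (2.17) while Aspn was at 1253 and 2765 CPM (0.45) and Ogn at 72.1 and 237 CPM (0.30), and in adventitial fibroblasts Aspn, Fmod and Omd were the 3 of 9 at least 2-fold lower, against 3.05% of all genes.

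In alveolar fibroblasts neither collagen receptors (4 of 11 measured) nor basement membrane partners of type IV collagen (10 of 16) had a gene 2-fold apart, and their median log2 ratios were -0.05 and -0.23. In pericytes the basement membrane partner Nid1, which links laminin to type IV collagen, was at 370 and 129 CPM (2.88, 1.69 to 5.17), the only 1 of 6 measured to reach 2-fold, against 7.06% of all genes. In myofibroblasts 5 of 19 folding genes were at least 2-fold higher, Creb3l1, P4ha1, Colgalt1, Plod2 and P4ha2, each from 11 or fewer Cherry_negative UMIs and against 6.44% of all genes, and none was lower.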

How the data were processed

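The deposited tables give UMI counts for each gene in each barcode of 2 libraries, made per the labels with Chromium 3′ kits with a target of 50000 reads per cell. Per the submitters' processing notes, R 4.0.3, Seurat 4.0.2 and Cell Ranger 2.1.1 were used, with build mm10. Collagen chains, marker lists and partner lists were chosen with earlier results of these data known.

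Barcodes below 500 genes or above 10% mitochondrial UMIs (56 and 50) and Scrublet calls (4 and 7, expected rate 2%) were left out; so few calls mean that doublets may remain. Cells were clustered with scanpy 1.11.5 and leidenalg 0.10.2 on 2000 variable genes other than collagen genes, 30 components and 15 neighbours at resolution 1, and clusters with 2 lineages were clustered again, which left 23 clusters in all. A name needed 3 detected markers, and 4 markers (Gucy1a1, Ighm, Igkc and Trbc2) were not used. One cluster of 19 cells stayed mixed.

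UMIs were summed per class. Intervals at 95% are exact: Poisson for sums, binomial for shares of cells, and from the matching binomial share for ratios. They cover counting error only. Chains reaching 30 UMIs in all were named. Ratios were taken for genes reaching 30 UMIs in a class, summed over both libraries, where each library held 50 cells. Free RNA was estimated from 3 genes of its source class. No p-value was computed. The call rule was tested on simulated data.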

Additional observations from a re-analysis of the deposited data

Results flagged for a closer look

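Barcodes left out by the cell filter and the doublet calls enter no comparison but also held collagen UMIs. The 60 such barcodes of the Cherry_positive library had 736 collagen UMIs, or 3007 CPM, and the 57 of the Cherry_negative library had 249, or 1565 CPM. Both lay above the levels that a count of 0 allows (12.3 and 18.9 CPM), and below the 6080 and 2338 CPM of the kept cells.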

How the results depend on the processing

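No paired analysis was possible because each group has 1 library. Leaving out clusters 7 and 8, or the barcodes found in both libraries, were alternatives chosen after seeing the data. The number of chains at least 2-fold higher in alveolar fibroblasts, 5, became 9 at a ratio of 1.5, 2 with at least 100 UMIs and 2 in clusters 1 and 6 alone. The number lower, 1, became 2, 0 and 0. In clusters 1 and 6 alone 2.79% of all 7956 genes were higher and 3.02% lower. The share of all genes was not taken at a ratio of 1.5 or with at least 100 UMIs. Those counts are therefore not a result about collagen. The fibril-forming ratio of 1.63 became 1.78 with trimmed-mean scaling and ranged from 1.60 to 1.78 over 12 alternatives for the class; within single clusters 1 and 6 it was 1.24 and 1.32. The type IV ratio of 1.57 became 1.24 in clusters 1 and 6 alone. There the ratio of Col6a1 passed from 0.89 to 1.04. Of 322 recomputed ratios of single chains, 305 stayed within the counting interval of the value reported, and 17 did not. Crossing to the other side of 1 were this Col6a1 ratio, whose interval excluded 1, and 2 ratios whose intervals held 1: alveolar Col6a3 (0.92 to 1.01 with trimmed-mean scaling) and Col4a1 of general capillary cells (1.03 to 0.892 with each library clustered by itself and to 0.997 with collagen genes allowed in clustering). Where the changes have a cause beyond fewer cells or genes, the cause was not tested. Without the 13 shared barcodes the counts stayed at 5 and 1. Depth limits chains such as Col12a1, Col15a1 and Col5a3, which had 3 to 5 Cherry_negative UMIs in alveolar fibroblasts.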

Other observations

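Classes with under 50 cells in each library are given as values. Mesothelial cells, which cover the lung surface, held Col4a4 at 85.9 CPM from 8 UMIs in 11 Cherry_positive cells and at 134 CPM from 9 UMIs in 12 Cherry_negative cells, with 1 and 2 UMIs of its neighbour Col4a3. They also held Col6a1 (48 and 31 UMIs) and Col6a2 (30 and 27 UMIs) with 1 and 0 UMIs of Col6a3. Smooth muscle cells, 7 and 18, had Col18a1 at 79.1 and 144 CPM from 3 and 12 UMIs.

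Of the 18 chains under 30 UMIs, Col4a6 had 25 UMIs, Col20a1 19, Col8a2 18, Col11a2 15, Col25a1 and Col6a5 9 each, Col9a3 and Col22a1 8 each, Col24a1 7, Col11a1 and Col9a2 5 each, Col26a1 3, Col28a1 2 and Col9a1 1. Col2a1, Col6a4, Col10a1 and Col19a1 had none.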
